A study of Homo sapiens with 8 samples.

Results

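The clustered protocadherins are a family of neuronal adhesion proteins encoded by the alpha, beta and gamma gene clusters that follow one another on human chromosome 5. The members described here are every gene of the deposited expression table whose symbol starts with PCDHA, PCDHB or PCDHG, which gave 53 of 17504 genes: 15 alpha, 16 beta and 22 gamma. The gamma genes divide into 12 of type GA, 7 of type GB and 3 C-type genes (PCDHGC3, PCDHGC4 and PCDHGC5), and the alpha cluster ends in 2 C-type genes of its own (PCDHAC1 and PCDHAC2). The symbols alone chose the members, but the family was put forward with the comparison below already known, so calls between the groups are given as a description and nothing is supported with them.

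Bulk RNA was profiled in 3 libraries of FABP7 knockdown brain organoids (FKD) and 3 libraries of control organoids labelled wild type (FCT), all grown to day 30 from IMR90-4, a human induced pluripotent stem cell line. Each group came from 1 derived cell line, so line and knockdown cannot be told apart, and the labels do not say whether the libraries of a group were separate cultures; the spread behind each p-value may therefore be technical spread between libraries. The labels also list 2 single-cell libraries, not analysed here; the preparation text describes single-cell libraries alone, and the series' design line speaks of adipogenic differentiation while the tissue and cell type labels name brain organoids and the neural lineage. How the knockdown was made, and the aligner, counter, annotation and strand setting, were not given in the sources used here.

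In a clustered protocadherin locus, every alpha or gamma gene has its own promoter and its own large first exon, which encodes the extracellular adhesion domains and the membrane span and is spliced to constant exons shared by the whole cluster. Beta genes have no shared constant exons. Single neurons switch on different small combinations of the alternate genes through promoter choice, a process that involves the looping factor CTCF, cohesin and DNA methylation, while C-type genes are expressed more uniformly; the proteins bind their own kind on other cells and are known from mouse work for self-avoidance of dendrites and axons and for neuron survival.

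On GRCh38.p14 the alpha genes spanned chr5:140786140-141012347, the beta genes chr5:141051374-141249365 and the gamma genes chr5:141330514-141512975, all on the plus strand, per RefSeq. The constant exons show why reads cannot always be given to 1 gene. In GENCODE 29, on GRCh38, all 15 alpha genes shared an exon of 59 bases at chr5:140978949-140979007 and one of 89 bases at chr5:140982475-140982563, and all 22 gamma genes shared exons of the same lengths at chr5:141494807-141494865 and chr5:141505393-141505481. A final constant exon completed each cluster and is not printed.
alpha constant exon, 59 bases: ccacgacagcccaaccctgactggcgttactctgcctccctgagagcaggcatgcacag
gamma constant exon, 59 bases: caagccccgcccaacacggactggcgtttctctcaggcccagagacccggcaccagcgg
alpha constant exon, 89 bases: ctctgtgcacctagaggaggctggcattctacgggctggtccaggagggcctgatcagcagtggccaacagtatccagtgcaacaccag
gamma constant exon, 89 bases: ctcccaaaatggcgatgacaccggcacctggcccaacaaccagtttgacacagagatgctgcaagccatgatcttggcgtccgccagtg
The alpha and gamma exons of 59 bases were identical at 39 positions (66.1%), and those of 89 bases at 29 positions (32.6%). A read within a constant exon therefore tells the cluster, not the gene.

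The promoters show a feature that many, but not all, members of each cluster share with one another. RefSeq promoters (GRCh38.p14, 250 bases before to 50 after each gene's start) matched 47 of the 53 members: 13 alpha, 14 beta and 20 gamma. A short word around the letters CGCT recurred just before the start sites, and its longer form differed between clusters. The words were picked from these same promoters, each contains CGCT, and both strands were searched. GGTGGCGCT was found in 13 of 14 beta promoters, in 0 alpha and in 0 gamma promoters, and in 0.619% of all 27305 genes of the RefSeq promoter set. Among the members, ATGTCGCT was found in 9 of 13 alpha promoters only, against 0.282% of all promoters. GCCGCTGT likewise was found in 11 of 20 gamma promoters only, against 1.98% of all promoters. CGCT alone was in 12 of 13 alpha, 14 of 14 beta and 20 of 20 gamma promoters, but also in 71.9% of all promoters. A match is a description of the letters, not of a bound factor. Some of the genes that lead their clusters or were called lower, PCDHA11, PCDHAC1, PCDHAC2 and PCDHGB7, had promoters with CGCT but without their cluster's word. The windows below belong to other genes that lead their clusters or differed most between the groups. Only genes that hold the word are shown, with the word in capitals, all on the plus strand.
PCDHA4 at chr5:140806979-140807010: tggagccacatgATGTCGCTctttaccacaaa
PCDHA5 at chr5:140821542-140821573: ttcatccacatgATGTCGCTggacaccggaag
PCDHA6 at chr5:140827897-140827928: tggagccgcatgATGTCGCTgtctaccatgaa
PCDHB2 at chr5:141094543-141094575: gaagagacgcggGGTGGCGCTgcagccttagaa
PCDHB12 at chr5:141208642-141208674: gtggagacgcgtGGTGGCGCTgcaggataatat
PCDHB13 at chr5:141213864-141213896: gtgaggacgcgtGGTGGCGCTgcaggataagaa
PCDHB15 at chr5:141245313-141245345: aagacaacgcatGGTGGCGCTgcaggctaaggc
PCDHB16 at chr5:141182309-141182341: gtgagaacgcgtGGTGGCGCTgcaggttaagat
PCDHGB6 at chr5:141407926-141407957: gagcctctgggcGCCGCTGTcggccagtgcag
PCDHGA10 at chr5:141412933-141412964: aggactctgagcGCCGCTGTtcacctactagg
PCDHGC3 at chr5:141475882-141475913: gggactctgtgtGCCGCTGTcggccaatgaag
PCDHGC4 at chr5:141484954-141484985: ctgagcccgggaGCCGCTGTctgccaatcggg
In these windows the word began 42 to 85 bases before the start site in alpha genes, 2 to 84 in beta genes and 42 to 97 in gamma genes, over all members that hold it. The 250 bases before the start of PCDHB2, the beta gene with the highest level, at chr5:141094365-141094614, read as follows with the word in capitals.
PCDHB2 promoter: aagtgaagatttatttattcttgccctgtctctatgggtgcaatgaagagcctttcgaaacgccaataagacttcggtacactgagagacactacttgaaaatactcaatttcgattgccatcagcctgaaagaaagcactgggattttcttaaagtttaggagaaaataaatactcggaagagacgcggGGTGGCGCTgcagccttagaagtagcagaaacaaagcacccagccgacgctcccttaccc

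FABP7, a fatty acid binding protein of radial glia and the target of the knockdown, checks the labels: it was listed at 2.26, 2.13 and 2.29 TPM in the FKD libraries, against 569, 588 and 602 TPM in the FCT libraries (log2 fold change -7.57 ± 0.09, SE). TPM, the authors' unit, is scaled by gene length and library size and is used for all levels compared between genes. The libraries held 13424959 to 15675888 estimated counts, of which 5640 to 6339 fell to the members, and a gene with 3 counts, the limit that a count of 0 allows, stood at 0.191 to 0.223 CPM (counts scaled to library size), for counting error only. Fold changes are FKD over FCT, fitted on counts with edgeR's quasi-likelihood test over 13468 genes with enough counts, after TMM scaling of library sizes. A gene is called when its Benjamini-Hochberg adjusted p over all genes is under 0.05, and "rose" and "fell" are used of called genes only.

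Of the 53 members, 38 had enough counts to test: 14 alpha, 14 beta and 10 gamma. Of these, 15 were called higher and 7 lower in FKD, and 16 were not called; over all genes 51.7% were called, 26.4% higher and 25.3% lower. The clusters differed in what their members did. In the beta cluster 10 members rose and 0 fell, in the alpha cluster 3 rose and 4 fell, and in the gamma cluster 2 rose and 3 fell. The median log2 fold change was 0.71 over the tested beta members, 0.09 over alpha and -0.01 over gamma, beside -0.01 over all genes tested. Members called at least 2-fold higher numbered 5 in beta, 1 in alpha and 1 in gamma, where 1.57% of all genes were so called; 1 gamma member was at least 2-fold lower, as were 2.37% of all genes. These counts cover the members that passed the filter on counts, and the 15 others are described at the end of the account of each cluster.

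**Figure D1:**
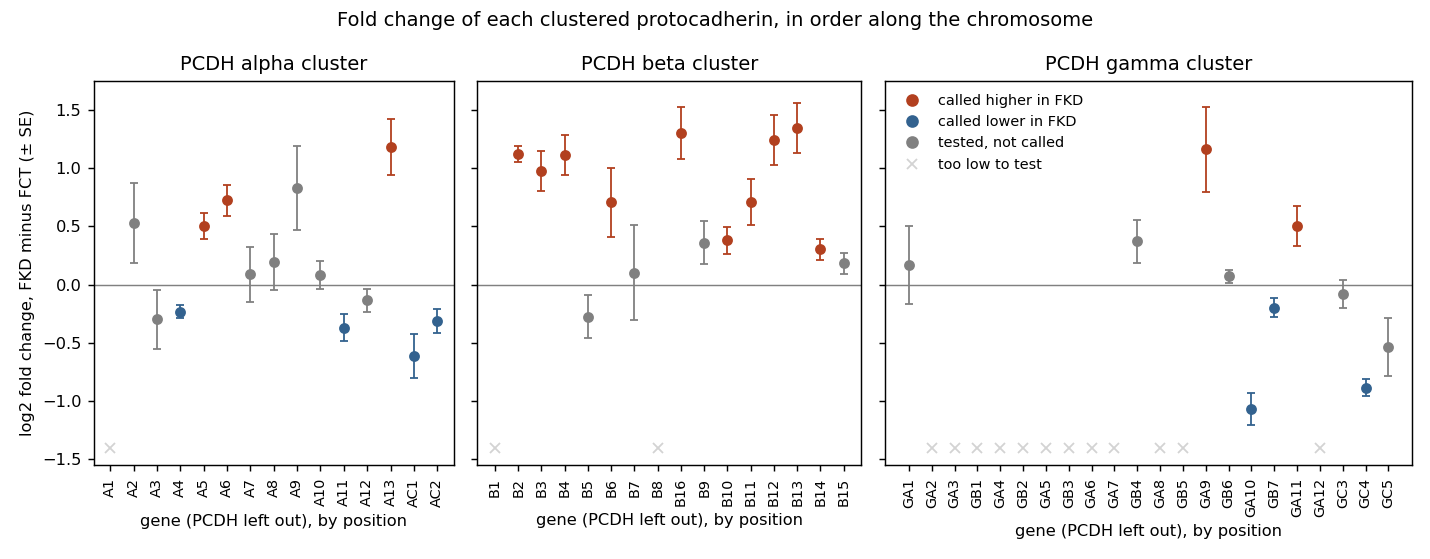
Log2 fold change (FKD minus FCT, vertical axis, with its standard error) of each clustered protocadherin, ordered by position on chromosome 5 within each cluster; colours give the edgeR call and crosses at the foot mark the 15 members with too few counts to test. All called beta members lie above 0, while alpha and gamma hold called members on both sides, and the 5 C-type genes at the right ends of alpha and gamma all lie below 0.

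Summing the counts of a cluster removes the uncertainty of dividing reads between its own members. The summed beta level, in TMM-scaled CPM, was 137.3, 136.6 and 137.4 in the FKD libraries, against 78.2, 89.6 and 84.1 in the FCT libraries, a ratio of 1.63 (log2 ratio 0.71). Every FKD library was above every FCT library, by far more than the spread within either group. The summed alpha level was 125.3, 127.6 and 129.9 CPM in FKD, against 134.4, 135.9 and 135.1 CPM in FCT (log2 ratio -0.08). The summed gamma level was 162.7, 160.2 and 154.1 CPM in FKD, against 178.4, 182.6 and 172.5 CPM in FCT (log2 ratio -0.16). Both of these sums were lower in all 3 FKD libraries than in any FCT library, but the shifts were small beside that of the beta cluster. Of the counts of all members together, beta genes took 32.4% ± 0.2 in FKD and 21.1% ± 1.0 in FCT, alpha genes 30.1% ± 0.7 and 34.1% ± 0.7, and gamma genes 37.5% ± 0.9 and 44.8% ± 0.8 (SD, n = 3 each, FKD first).

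**Figure D2:**
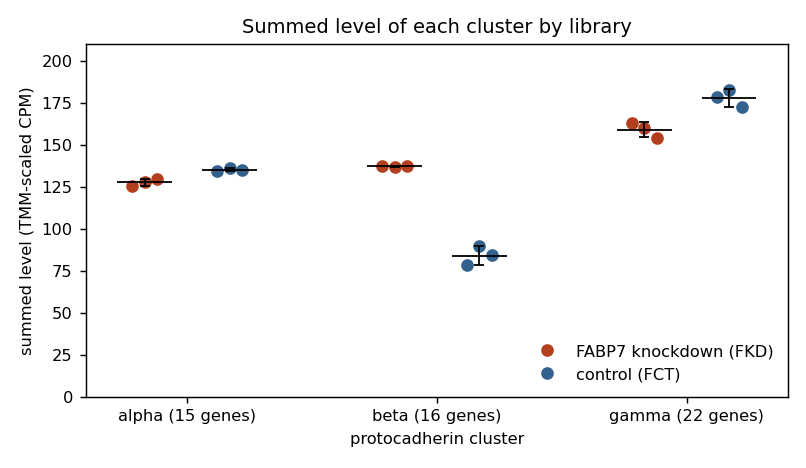
Summed level of each cluster in TMM-scaled CPM (vertical axis) for every library, with FKD left of FCT; points are libraries, and black lines are the group mean with the SD of 3 libraries. The beta sums lie at 136.6 to 137.4 in FKD and 78.2 to 89.6 in FCT, while the alpha and gamma sums are slightly lower in FKD.

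The direction of the 3 sums was the same under every scaling tried, but their size was not. In summed TPM the log2 ratio was 0.51 for beta, -0.25 for alpha and -0.29 for gamma. The median gene moved by -0.18 between the groups on that scale; relative to it the ratios were 0.70, -0.06 and -0.10. The bulk libraries cannot tell apart fewer cells of a type and less RNA per cell. Markers of neurons, the cells known for these genes, moved with the groups: of 16 pan-neuronal genes 1 rose (RBFOX1) and 14 fell, and their summed level was 2489 to 2531 TPM in FKD and 3804 to 3892 TPM in FCT. The 11 genes of radial glia and progenitors divided evenly, 4 rising and 4 falling, with sums of 1166 to 1207 TPM in FKD and 1303 to 1368 TPM in FCT. Beside both lists, 26.4% of all genes were called higher and 25.3% lower. The part of cell composition in the protocadherin values was not tested.

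In the beta cluster the largest gene by level also differed most in absolute amount. PCDHB2 (NCBI Gene 56133, chr5:141094615-141098703) was listed at 19.98, 20.17 and 21.10 TPM in FKD, against 9.72, 11.60 and 10.75 TPM in FCT. The FKD libraries lay close together and well above the FCT libraries, and the gene rose 2.18-fold (log2 fold change 1.12 ± 0.07, SE, on counts). In all 3 FCT libraries PCDHB2 stood below PCDHGC4 and PCDHA4, and in all 3 FKD libraries above both. The beta sum without PCDHB2 was still higher in every FKD library, at 77.5 to 79.9 CPM in FKD and 53.7 to 60.5 CPM in FCT (log2 ratio 0.46).

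Several beta genes of low level rose by as much or more on the ratio scale. PCDHB13 had 0.81, 1.00 and 1.04 TPM in FKD, against 0.43, 0.32 and 0.51 TPM in FCT, and rose 2.55-fold (log2 1.35 ± 0.22). PCDHB16 had 0.90, 1.27 and 1.29 TPM in FKD, against 0.51, 0.53 and 0.55 TPM in FCT, and rose 2.47-fold (log2 1.30 ± 0.22). PCDHB12 had 1.42, 1.33 and 1.31 TPM in FKD, against 0.56, 0.50 and 0.89 TPM in FCT, and rose 2.36-fold (log2 1.24 ± 0.21). In all 3 genes the lowest FKD library was above the highest FCT library. PCDHB4, at 1.98, 2.09 and 1.84 TPM in FKD and 0.78, 1.12 and 1.22 TPM in FCT, rose 2.16-fold (log2 1.11 ± 0.18), and PCDHB3, at 2.52, 2.56 and 1.93 TPM in FKD and 1.36, 1.15 and 1.52 TPM in FCT, rose 1.97-fold (log2 0.98 ± 0.17). These last genes also had groups that did not overlap. The proteins of these genes carry extracellular cadherin repeats like those of the alpha and gamma proteins.

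The other beta genes of high level moved little. PCDHB14 had 5.15, 4.92 and 5.29 TPM in FKD, against 4.87, 5.02 and 4.29 TPM in FCT, and PCDHB10 had 5.61, 4.73 and 4.64 TPM in FKD, against 3.82, 5.08 and 4.27 TPM in FCT. The TPM values of the groups overlapped in both genes; on TMM-scaled counts they did not, and edgeR called both higher, at log2 fold changes of 0.30 ± 0.09 and 0.38 ± 0.12. Neither call was kept with limma on log2(TPM + 1), where the adjusted p was 0.288 for PCDHB14 and 0.218 for PCDHB10, and where 11.9% of all genes were called higher and 45.9% lower. PCDHB10 was also not called by edgeR without FCT library 1 (adjusted p = 0.0648) or without FKD library 1 (adjusted p = 0.0754); over all alternatives its adjusted p ran from 0.00213 to 0.219, and that of PCDHB14 from 0.00409 to 0.288. PCDHB15 had 6.17, 6.64 and 6.66 TPM in FKD, against 5.76, 7.33 and 6.42 TPM in FCT, with overlapping groups, and was not called (log2 0.19 ± 0.09). Without FCT library 2 edgeR called it higher (adjusted p = 0.0165), in a range of 0.0165 to 0.985 over the alternatives.

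PCDHB6 and PCDHB11 rose 1.64-fold and 1.63-fold, at log2 fold changes of 0.71 ± 0.30 and 0.71 ± 0.20. The PCDHB6 call rested on few counts, 18 to 25 in FKD and 11 to 17 in FCT, and was lost in 10 of the 13 fits that tested it. Adjusted p was 0.185 with DESeq2, and with edgeR 0.0737 with library totals, 0.0589 with upper-quartile factors, 0.0554 without a low-count filter and 0.0658 with the replicate block. edgeR also no longer called it in 5 of the 6 fits that left out a library, at adjusted p values of 0.0545 (without FKD library 2), 0.0936 (without FKD library 1), 0.13 (without FCT library 3), 0.167 (without FKD library 3) and 0.18 (without FCT library 1), in a range of 0.0178 to 0.185 over all alternatives. PCDHB11 was not called with limma on TPM (adjusted p = 0.0612 at a pseudocount of 1), in a range of 0.000963 to 0.0695. PCDHB5 was the tested beta member with a negative value, at 1.15, 1.03 and 1.20 TPM in FKD and 1.48, 1.30 and 1.87 TPM in FCT, and was not called (log2 -0.27 ± 0.19). PCDHB9 (log2 0.36 ± 0.18) and PCDHB7 (log2 0.10 ± 0.41) were not called either, although PCDHB9 was called higher by edgeR without FCT library 3 (adjusted p = 0.0301, range 0.0301 to 0.474). PCDHB1 and PCDHB8 had at most 5.51 counts in any library and were not tested. Of the tested genes whose promoter held their cluster's word, 8 of 12 beta genes were called higher and 0 lower, 2 of 8 alpha genes higher and 1 lower, and 1 of 7 gamma genes higher and 2 lower, beside 26.4% higher and 25.3% lower over all genes. Every tested beta gene with a matched promoter held the word. The beta counts therefore restate the beta calls and cannot link the word to a call. The uncalled PCDHB5, PCDHB7, PCDHB9 and PCDHB15 held the same word, as the printed PCDHB15 window shows.

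In the alpha cluster, where each variable exon is joined to the shared constant exons, the leading gene was slightly lower and 3 smaller genes were higher. PCDHA4 (NCBI Gene 56144) was listed at 10.36, 10.11 and 11.11 TPM in FKD, against 13.78, 14.33 and 14.32 TPM in FCT. All FKD libraries were below all FCT libraries, and on counts the gene fell 1.17-fold (log2 -0.23 ± 0.06). Its level in TPM differed more than its counts did, as did the alpha and gamma sums. In TPM the median log2 ratio over all tested genes was itself -0.18. The alpha sum without PCDHA4 did not separate the groups, at 85.0 to 87.8 CPM in FKD and 86.6 to 87.3 CPM in FCT (log2 ratio -0.01).

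The alpha genes that rose sit on both sides of genes that did not. PCDHA5 had 2.89, 3.64 and 3.06 TPM in FKD, against 2.41, 2.49 and 2.46 TPM in FCT, and rose 1.42-fold (log2 0.50 ± 0.11). PCDHA6, its neighbour, had 2.57, 2.12 and 2.78 TPM in FKD, against 1.59, 2.01 and 1.81 TPM in FCT, and rose 1.65-fold (log2 0.72 ± 0.13). PCDHA13, the last alternate alpha gene, had 0.60, 0.71 and 0.72 TPM in FKD, against 0.44, 0.30 and 0.26 TPM in FCT, and rose 2.27-fold (log2 1.18 ± 0.24). In these 3 genes no FKD library overlapped an FCT library.

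PCDHA11 had 4.07, 3.06 and 4.25 TPM in FKD, against 5.34, 5.90 and 5.01 TPM in FCT, and fell 1.29-fold (log2 -0.37 ± 0.12). The groups did not overlap, but edgeR's adjusted p was 0.0505 without FCT library 2 and 0.098 without FKD library 2, in a range of 0.00349 to 0.098. PCDHA12 had 2.65, 3.41 and 3.19 TPM in FKD, against 3.87, 3.91 and 3.76 TPM in FCT; it was lower in every FKD library in TPM, overlapped on counts and was not called (log2 -0.13 ± 0.10), though limma on log2(TPM + 1) called it lower (adjusted p = 0.0328, range over the alternatives 0.0328 to 0.808). The remaining tested alpha genes PCDHA2, PCDHA3, PCDHA7, PCDHA8, PCDHA9 and PCDHA10 were not called, at log2 fold changes from -0.30 (PCDHA3) to 0.83 (PCDHA9, on 11.44, 13.12 and 25.52 counts in FKD and 9.14, 8.53 and 9.76 in FCT). With edgeR, PCDHA9 was called higher without FKD library 1 (adjusted p = 0.0278, range 0.0278 to 0.463) and PCDHA2 without FCT library 1 (adjusted p = 0.00508, range 0.00508 to 0.555). PCDHA1, with 2.63 to 25.95 counts in a library, was not tested.

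The gamma cluster was led by PCDHGB6 (NCBI Gene 56100), the member with the highest TPM of all 53 in each library. It was listed at 28.48, 29.03 and 27.48 TPM in FKD, against 29.17, 28.98 and 28.68 TPM in FCT. The groups overlapped and the gene was not called. On counts its log2 fold change was 0.07 ± 0.06, while its mean TPM was slightly lower in FKD. The sign thus depends on the unit, and in TPM the median log2 ratio over all tested genes was itself -0.18. Without PCDHGB6 the gamma sum was 72.0 to 75.7 CPM in FKD and 93.7 to 97.6 CPM in FCT (log2 ratio -0.39). Most of that difference lay in PCDHGC4, with a mean of 20.3 CPM in FKD and 37.3 CPM in FCT. PCDHGA10 came next, with 6.15 CPM in FKD and 12.9 CPM in FCT, while the other gamma genes moved in both directions.

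PCDHGA10 and PCDHGC4 accounted for the largest falls. PCDHGA10 (NCBI Gene 56106, chr5:141412987-141512975) had 1.32, 2.18 and 2.02 TPM in FKD, against 4.29, 4.73 and 4.02 TPM in FCT, and fell 2.10-fold (log2 -1.07 ± 0.14). It was the called member with the lowest fold change of the whole family, and its FKD values stood clear of all FCT values. PCDHGC4 is described with the C-type genes below. PCDHGB7 had 4.83, 4.53 and 5.36 TPM in FKD, against 6.18, 6.08 and 6.87 TPM in FCT, and was called lower on counts (log2 -0.20 ± 0.08). The groups did not overlap, but the call was lost with DESeq2 (adjusted p = 0.152), which called 21.8% of all genes higher and 20.5% lower, with limma-voom (0.0512), with edgeR and no low-count filter (0.0769), and with edgeR without FCT library 1 (0.071), FCT library 3 (0.142), FKD library 1 (0.106) or FKD library 2 (0.2), in a range of adjusted p from 0.00688 to 0.2.

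The gamma genes that rose were of low level. PCDHGA11 had 1.38, 1.20 and 1.32 TPM in FKD, against 1.01, 0.99 and 1.07 TPM in FCT, without overlap, and rose 1.42-fold (log2 0.51 ± 0.17). Its call was lost with DESeq2 (adjusted p = 0.0997) and with edgeR without FCT library 3 (0.0526) or FKD library 3 (0.0536), in a range of 0.0166 to 0.104. PCDHGA9, named after its values were seen, had 13.23, 24.13 and 14.88 counts in FKD, against 5.66, 9.52 and 7 in FCT, and was called higher (log2 1.16 ± 0.36). That call was lost with DESeq2 (adjusted p = 0.0588) and with edgeR without FCT library 1 (0.0522) or FKD library 2 (0.103), in a range of 0.00714 to 0.103. PCDHGB4, the gene with the fewest sequence windows of its own, at 31.7%, was not called (log2 0.37 ± 0.18) except by edgeR without FCT library 1 (adjusted p = 0.0262, range 0.0262 to 0.824). PCDHGA1 was not called either (log2 0.17 ± 0.33).

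A further 12 gamma genes, PCDHGA2 to PCDHGA8, PCDHGA12, PCDHGB1, PCDHGB2, PCDHGB3 and PCDHGB5, had too few counts to test, with means of at most 0.268 TPM and 0 to 29.35 counts in a library. Among them PCDHGA12, named after its values were seen, had 26.85, 6 and 11 counts in FKD, against 2, 2 and 3 counts in FCT. Its FKD libraries were all above its FCT libraries, but FKD library 1 held most of the FKD counts. Of the members as a whole, 26 averaged at least 1 TPM and 27 less than that.

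**Figure D3:**
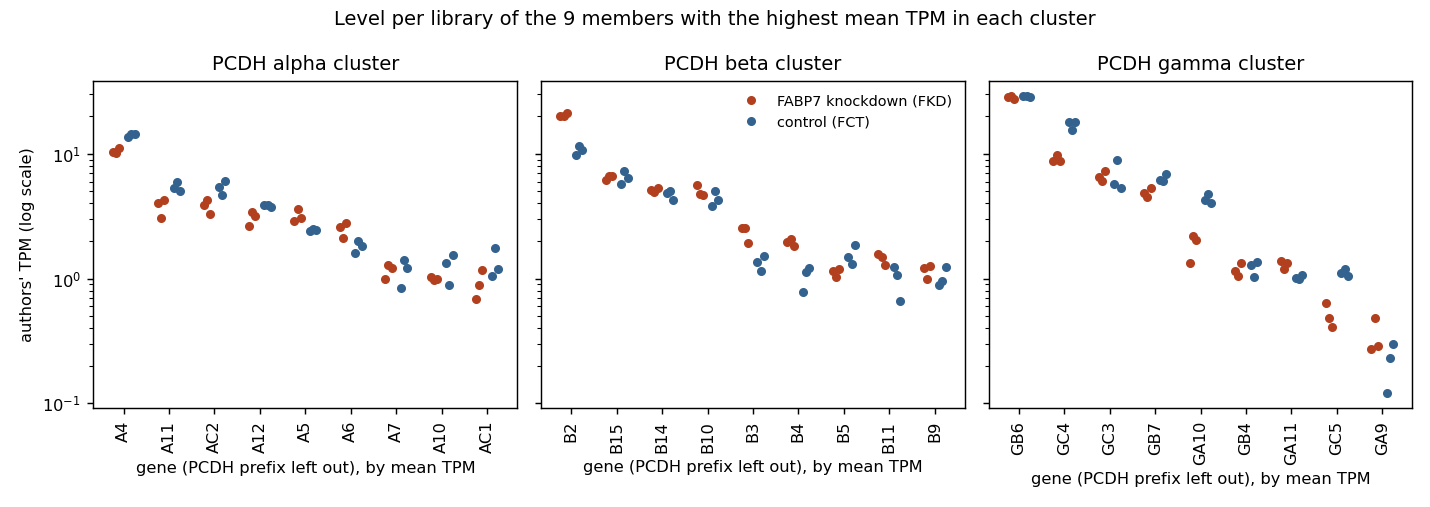
The authors' TPM (vertical axis, log scale) in each library for the 9 members with the highest mean TPM in each cluster, with the 3 FKD libraries left of the 3 FCT libraries for each gene. PCDHB2 is higher in FKD, PCDHGC4 and PCDHGA10 are lower, and PCDHGB6 lies at 27.48 to 29.17 TPM throughout.

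The 5 C-type genes, which sit at the ends of the alpha and gamma clusters next to the constant exons, were all tested. Of these, 3 fell, 0 rose and 2 were not called, beside 25.3% lower and 26.4% higher over all genes. All 5 had a negative log2 fold change in the main fit, from -0.88 in PCDHGC4 to -0.08 in PCDHGC3. The sign of PCDHGC3 was not stable. It was 0.02 with limma on log2(TPM + 1) and 0.10 with edgeR without FCT library 2. PCDHGC4, known from mouse for the survival of cortical interneurons, had 8.80, 9.76 and 8.81 TPM in FKD, against 18.17, 15.42 and 17.93 TPM in FCT. No library overlapped, and the gene fell 1.85-fold (log2 -0.88 ± 0.07). In FCT it stood above PCDHA4 in every library, and in FKD below it in every library.

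PCDHAC2, known from mouse for the spacing of serotonergic axons, had 3.86, 4.29 and 3.27 TPM in FKD, against 5.41, 4.69 and 6.01 TPM in FCT, and fell 1.24-fold on counts (log2 -0.31 ± 0.10). Its TPM values did not overlap but its scaled counts did, and edgeR's adjusted p was 0.0679 without FCT library 3 and 0.121 without FKD library 3, in a range of 0.00202 to 0.121. PCDHAC1 had 0.68, 0.89 and 1.16 TPM in FKD, against 1.04, 1.77 and 1.20 TPM in FCT, and fell 1.53-fold on counts (log2 -0.61 ± 0.19). Its TPM values overlapped, and its adjusted p was 0.0989 with edgeR without FCT library 2 and 0.11 with limma on log2(TPM + 0.1), a fit that called 11.8% of all genes higher and 45.8% lower, in a range of 0.00123 to 0.11.

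PCDHGC3, known from mouse for the growth of dendrite arbors, had 6.52, 6.01 and 7.32 TPM in FKD, against 5.76, 8.92 and 5.32 TPM in FCT, with overlapping groups, and was not called (log2 -0.08 ± 0.12). Its deposited counts and TPM did not move together. The count per unit of TPM differed 1.35-fold between the highest and the lowest library, against a median of 1.02 over the 8802 genes examined. Relative to the median gene of each library it was 0.98 to 1.03 in FKD and 1.13 to 1.32 in FCT, so it differed with the group. The gamma genes PCDHGB6 and PCDHGC4 also differed, 1.17-fold and 1.15-fold, while PCDHA4 stood at 1.02 and PCDHB2 and PCDHB15 at 1.01. On that relative scale PCDHGC4 was at 1.04 to 1.08 in FKD and 1.16 to 1.19 in FCT, while the groups overlapped in PCDHGB6. The part of this difference in the fold changes on counts was not tested. PCDHGC5, reported from rodents to bind GABA-A receptors, had 0.64, 0.48 and 0.41 TPM in FKD, against 1.10, 1.19 and 1.05 TPM in FCT. In TPM the groups stood clear of one another, but its counts of 32.20, 24.32 and 20.67 in FKD and 47.86, 40.05 and 24 in FCT overlapped, and edgeR did not call it (log2 -0.54 ± 0.25). It was called lower with limma on log2(TPM + 1) (adjusted p = 0.00278) and with edgeR without FCT library 3 (0.00695) or FKD library 1 (0.0395), in a range of 0.00278 to 0.28.

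Within each cluster a few genes held most of the level, and the make-up differed between the groups. The 4 largest shares of each library were added up and averaged over the libraries of a group. They came to 87.1% of the gamma TPM in FKD and 86.3% in FCT. For beta they were 74.7% and 75.8%, and for alpha 65.0% and 73.2%, each with FKD first. In alpha the 4 genes were not the same in every library. PCDHB2 made up 41.2% ± 1.0 of the beta TPM in FKD and 30.8% ± 0.5 in FCT (SD, n = 3 each). PCDHB15 made up 13.1% ± 0.6 in FKD and 18.7% ± 0.9 in FCT, so a gene with nearly the same TPM in both groups had a smaller share of a larger sum. PCDHB5 stood 11th among the beta genes by mean TPM in FKD and 5th in FCT, though its values overlapped those of PCDHB9 and PCDHB16 in FKD and those of PCDHB3 in FCT.

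PCDHGB6 made up 50.4% ± 1.6 of the gamma TPM in FKD and 42.2% ± 0.3 in FCT, with a TPM that hardly differed. PCDHGC4 made up 16.2% ± 0.9 in FKD and 25.1% ± 2.3 in FCT, and PCDHGA10 made up 3.27% ± 0.79 in FKD and 6.34% ± 0.50 in FCT. In the alpha cluster PCDHA4 made up 31.8% ± 0.9 in FKD and 36.0% ± 0.7 in FCT, PCDHA5 made up 9.67% ± 1.23 in FKD and 6.24% ± 0.06 in FCT, and PCDHA6 made up 7.52% ± 0.93 in FKD and 4.59% ± 0.49 in FCT. For each of the genes named here with a share, the FKD and FCT libraries did not overlap.

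**Figure D4:**
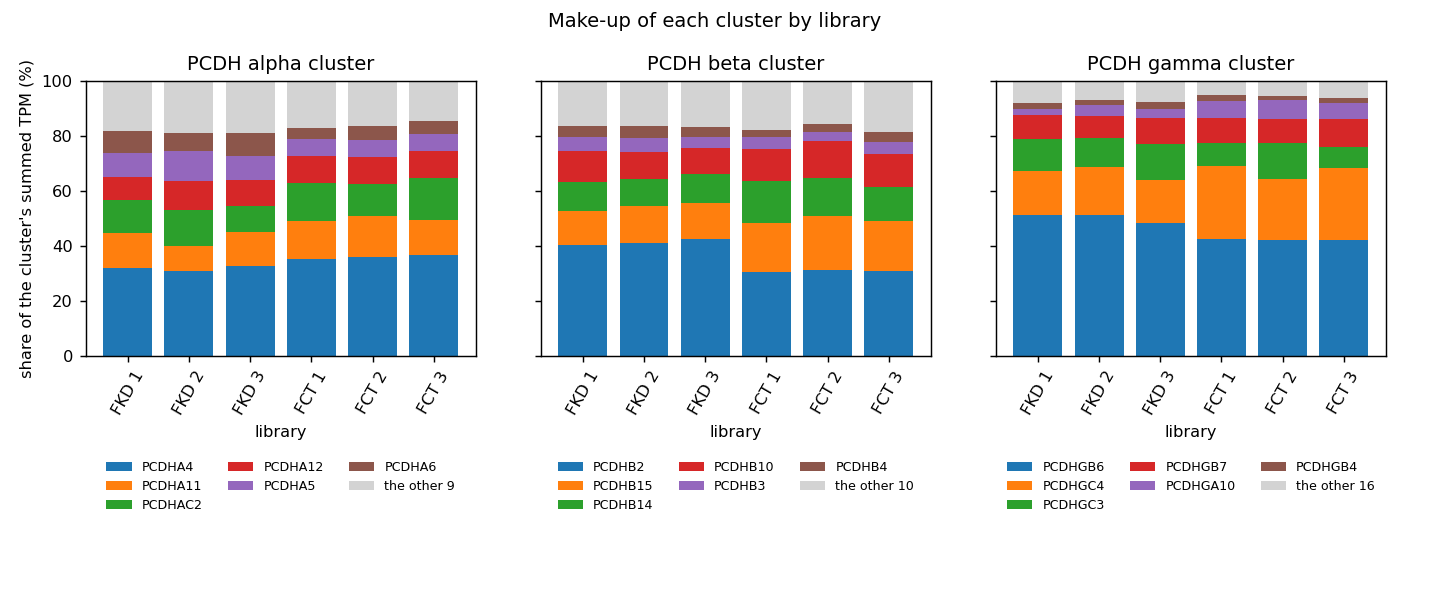
Share of each cluster's summed TPM (vertical axis, percent) held by its 6 leading genes and by the others, for each library, with the 3 FKD libraries left of the 3 FCT libraries. The blue base of the bars is PCDHA4, PCDHB2 or PCDHGB6; the PCDHB2 and PCDHGB6 shares are larger in all FKD libraries, and the PCDHA4 share is smaller.

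How well single genes can be told apart differs between the clusters. Of the 100-base windows of a gene's GENCODE 29 transcripts, the median share found in no other gene was 92.3% over the beta genes, 54.4% over alpha and 56.9% over gamma. A count with decimals is an estimate in which some reads were split over several genes or isoforms. Of the deposited counts 97.8% of the alpha values were not whole, as were 66.7% of beta and 62.9% of gamma values, against 13.1% over all genes. Beta values rested on mostly unique sequence, while reads from the constant exons of alpha and gamma must be shared out. Genes that are not among the members also overlap them. In GENCODE 29 an exon on the opposite strand overlapped the exons of 10 of 16 beta, 8 of 15 alpha and 1 of 22 gamma genes, and covered 15.03% of the exonic bases of PCDHB2 and 16.3% of those of PCDHB16. With no strand setting given, reads from a gene and from such a partner cannot be told apart. On the same strand, an exon of a gene that is not a member overlapped 5 beta genes and 1 alpha gene. It covered 3.5% of PCDHB14 and 9.43% of PCDHB15. In the alpha case the overlapping gene was PCDHA14, an alpha symbol absent from the expression table, which covered 15.1% of PCDHA10. Over the members with at least 50% of windows unique the alpha sum had a log2 ratio of -0.12. Within a cluster, an apparent change in make-up and a change in how shared reads were divided cannot be told apart from these tables.

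Of the 22 called members, 12 kept their call in every fit in which they were tested and 14 in every fit that left out a library. Among the 12, PCDHA13, PCDHB13 and PCDHB16 were tested in only 13 of the 16 alternative fits. Their levels were too low for the fits on TPM. The 12 numbered 6 of 10 in beta, 4 of 7 in alpha and 2 of 5 in gamma. No tested member turned to a call in the opposite direction. Where groups did not overlap on scaled counts, FKD was higher for 9 and lower for 0 of 14 tested beta genes, higher for 4 and lower for 3 of 14 alpha genes, and higher for 2 and lower for 3 of 10 gamma genes; over all genes the groups did not overlap in 57.3%, with FKD above in 29.1% and below in 28.2%.

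Of 24 regulators of chromatin and promoter choice 9 rose and 5 fell, with a median log2 fold change of 0.07, beside 26.4% higher and 25.3% lower over all genes. With limma on log2(TPM + 1), 2 rose and 11 fell, beside 11.9% and 45.9% of all genes, so the balance of this list depends on the scaling. DNMT3B, a DNA methyltransferase that in mouse is needed for the random choice of protocadherin promoters, had 5.14, 4.74 and 4.92 TPM in FKD, against 8.45, 10.57 and 8.96 TPM in FCT, and fell (log2 -0.74 ± 0.09). REST, a repressor of neuronal genes, had 6.28, 7.66 and 6.81 TPM in FKD, against 5.04, 5.02 and 4.73 TPM in FCT, and rose (log2 0.67 ± 0.08). The groups did not overlap in either gene. The cohesin subunit gene STAG2 rose (log2 0.48 ± 0.04). These 3 genes kept their calls in every fit. TET1 and TET2, whose products oxidise methylcytosine, and CTCF were called higher on counts (log2 0.29 ± 0.06, 0.28 ± 0.06 and 0.22 ± 0.05), but their TPM values overlapped between the groups. TET1 had 8.71, 9.61 and 10.43 TPM in FKD, against 8.28, 8.86 and 8.98 TPM in FCT. TET2 had 8.22, 8.43 and 9.25 TPM in FKD, against 7.98, 7.56 and 8.45 TPM in FCT. CTCF had 31.18, 32.65 and 34.06 TPM in FKD, against 31.02, 32.53 and 30.69 TPM in FCT. With limma on log2(TPM + 1) all 3 calls were lost, at adjusted p values of 0.18 for TET1 (range over the alternatives 2.99e-05 to 0.18), 0.244 for TET2 (range 1.5e-05 to 0.244) and 0.385 for CTCF (range 0.000107 to 0.385). SMCHD1, a silencer of these clusters in mouse, was not called (log2 -0.01 ± 0.04), though limma on log2(TPM + 1) called it lower (adjusted p = 0.00445, range 0.00445 to 0.997). WIZ was not called either (log2 -0.16 ± 0.07), but edgeR called it lower without FCT library 1 (adjusted p = 0.0419), FCT library 3 (0.0236) or FKD library 1 (0.0355), in a range of 0.00524 to 0.227.

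Of 20 genes for partners and processing of the proteins, 6 rose and 4 fell (median log2 fold change -0.03), beside 26.4% and 25.3% of all genes. APH1A, a subunit of gamma-secretase, which cleaves protocadherins within the membrane, had 114.7, 111.4 and 113.0 TPM in FKD, against 87.4, 92.4 and 89.3 TPM in FCT, and rose (log2 0.53 ± 0.04). CYFIP2, a subunit of the actin-regulating WAVE complex, had 12.29, 11.91 and 12.37 TPM in FKD, against 19.51, 20.98 and 19.34 TPM in FCT, and fell (log2 -0.52 ± 0.05), while its paralogue CYFIP1 rose (log2 0.31 ± 0.06). The kinase gene FYN fell (log2 -0.38 ± 0.05), and PDCD10, for a scaffold protein, rose (log2 0.27 ± 0.06). With limma on log2(TPM + 1), 1 gene of this list rose and 10 fell, beside 11.9% and 45.9% of all genes. The calls of CYFIP1 and PDCD10 were then lost (adjusted p = 0.105 and 0.16), over ranges of 8.76e-07 to 0.105 and 0.000231 to 0.16.

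Of 17 genes around the clusters on chromosome 5, 4 rose and 4 fell (median log2 fold change -0.01), a share near the 26.4% higher and 25.3% lower over all genes. TAF7, a gene of the general transcription factor TFIID that lies between the beta and gamma clusters, had 315.6, 330.3 and 320.0 TPM in FKD, against 281.1, 310.4 and 297.8 TPM in FCT, and rose (log2 0.30 ± 0.04). Beyond the gamma cluster, ARAP3 (log2 -0.67 ± 0.12), the single protocadherin gene PCDH1 (log2 -0.53 ± 0.09) and the formin gene DIAPH1 (log2 -0.39 ± 0.06) fell. With limma on log2(TPM + 1), 1 neighbour rose and 8 fell, beside 11.9% and 45.9% of all genes.

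**Figure D5:**
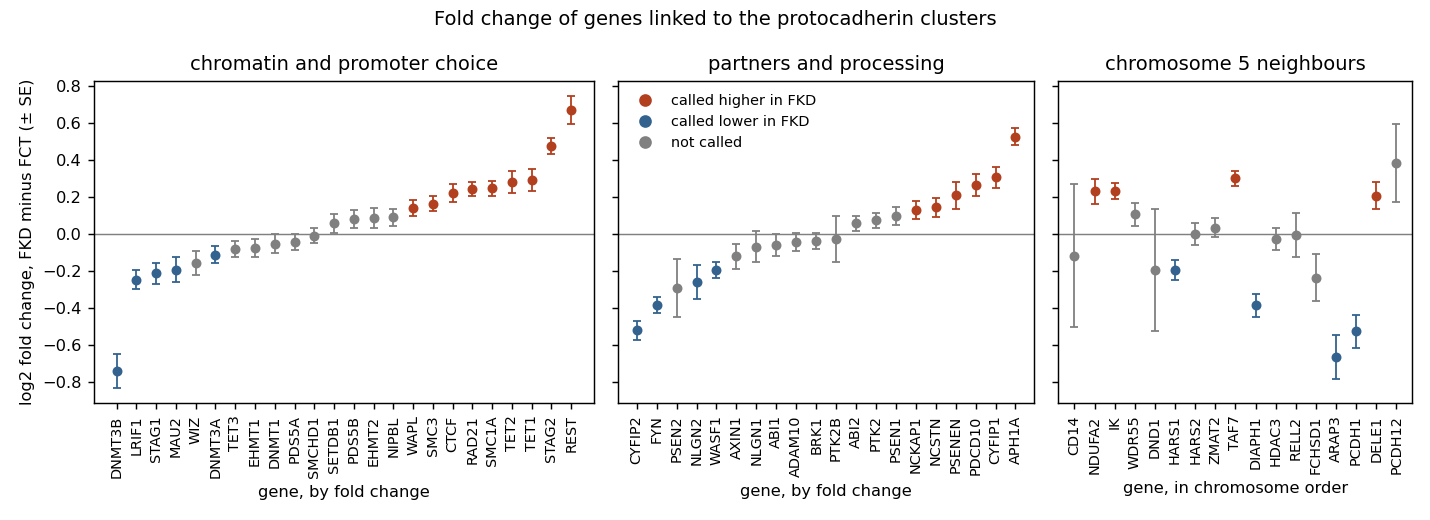
Log2 fold change (FKD minus FCT, vertical axis, with its standard error) of the tested regulators, partners and chromosome 5 neighbours of the clusters; colours give the edgeR call. Called genes lie on both sides of 0 in each list, and DNMT3B at -0.74 and REST at 0.67 mark the ends of the regulator list.

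Markers of other cell types that organoids could hold were low or mixed. Their calls stand beside 26.4% higher and 25.3% lower over all genes. The 4 pluripotency genes summed to 12.7 to 15.3 TPM in FKD and 16.9 to 18.2 TPM in FCT, with 0 rising and 1 falling (LIN28A). Of 7 mesenchymal genes 4 were tested and 2 rose (LUM and PDGFRB), with sums of 9.84 to 10.6 TPM in FKD and 5.09 to 5.99 TPM in FCT; COL3A1, DCN and TWIST1 averaged at most 0.07 TPM in either group. The 4 microglial genes summed to 62.9 to 66.3 TPM in FKD and 18.8 to 21.6 TPM in FCT, nearly all of it AIF1, with CX3CR1, CSF1R and PTPRC at most 0.053 TPM on average in either group. The 5 choroid plexus genes summed to 0.68 to 1.42 TPM in FKD and 1.14 to 1.72 TPM in FCT, and the 4 endothelial genes to 0.3 to 0.53 TPM in FKD and 0.24 to 0.66 TPM in FCT. Their part in the protocadherin values was not tested.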

How the data were processed

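RNA was measured in 6 bulk libraries, 3 per group. The deposited table gives, per the file headers, estimated read counts per gene (expected counts, with decimals), FPKM, TPM and a normalized read count; the deposited normalized counts are a signal that scales each library by 1 factor, and the authors' group average of them is a score of whole numbers. The FPKM, normalized and average columns deposited by the authors entered no test. Per the submitters' processing notes the build was hg38; aligner and counter: not given in the sources used here.

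The expected counts, once rounded, were fitted in R 4.3.3 with edgeR 4.0.16 (TMM, filterByExpr with a count minimum of 10, robust quasi-likelihood test, group only). Benjamini-Hochberg adjustment ran over all 13468 genes tested. Total counts per library ran from 13424959 to 15675888. Alternatives used DESeq2 1.42.0 and limma 3.58.1 (voom, and limma-trend on log2 TPM with a pseudocount of 1 or 0.1, keeping genes that reached 1 TPM in 3 libraries), other scalings and filters, and each library left out. The fitting script was tested on simulated data. Replicate libraries differed by more than sampling noise (chi-square per degree of freedom 1.63 to 3.93), so each was counted.

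Cluster sums are summed counts as TMM-scaled CPM, and shares use the authors' TPM; no test was made on either. A 100-base window counted as unique where it lay in transcripts of no other GENCODE 29 gene.

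The members, gene lists and words were chosen with earlier results of these data known. Named members were the 4 with the highest mean TPM per cluster, the 4 largest called rises and falls that averaged 1 CPM or more, and all C-type genes; of the other lists, up to 5 called regulators and partners and 4 neighbours by size, with CTCF, SMCHD1, WIZ, DNMT3B and TAF7 whatever their call. All other members were named after their values were seen.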

Additional observations from a re-analysis of the deposited data

How the results depend on the processing

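The cluster sums kept their direction under all alternatives, and no named value reversed from one call to the opposite one. Scaling by library totals moved the log2 ratio to -0.15 for alpha and -0.23 for gamma; summed TPM gave -0.25 for alpha, 0.51 for beta and -0.29 for gamma; members with mostly unique windows, an alternative chosen after seeing the data, gave -0.12 for alpha. By counts instead of TPM, PCDHB2 held 42.6% of beta in FKD and 32.0% in FCT, and PCDHGB6 held 53.8% of gamma in FKD and 45.9% in FCT. Calls depended on the unit. With limma on log2(TPM + 1), 1480 genes were higher and 5697 lower (11.9% and 45.9% of 12411 tested), and with log2(TPM + 0.1), 1470 and 5688, against 3557 and 3409 by edgeR; of called genes 20.6% and 20.5% were then higher, against 51.1% by edgeR and 37.7% with library totals. In both TPM fits 4 of 10 tested beta members were higher, 0 gamma members were higher, 2 regulators were higher and 11 lower, 1 partner was higher and 10 lower, and 1 neighbour was higher and 8 lower. Fewer genes were tested at 10 CPM, where 3 of 4 beta members were higher and 0 lower, 0 of 4 alpha members higher and 3 lower, and 0 of 5 gamma members higher and 3 lower, beside 29.03% higher and 29.7% lower over 9668 genes. DESeq2 called 0 gamma members higher, 3 regulators lower and 3 partners higher, beside 21.8% of all genes higher and 20.5% lower. Without a low-count filter edgeR called 5 of 22 gamma members higher, beside 21.4% of all genes. With library totals 10 regulators were lower and 3 partners higher, beside 32.6% of all genes lower and 19.7% higher. The cause of these differences was not tested.

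Leaving out each library in turn, which called 22.2 to 26.1% of all genes higher and 20.9 to 25.2% lower, gave 8 to 11 of 14 tested beta members higher, 2 to 4 of 14 to 15 alpha members lower (2 without FCT library 2), 1 to 3 of 10 to 13 gamma members higher (1 without FKD library 3), 3 to 6 regulators lower (3 without FCT library 2 or FKD library 2) and 3 to 6 partners higher (3 without FKD library 2). With the replicate number as a block, 9 beta members were higher, 3 alpha members higher and 4 lower, and 2 gamma members higher and 3 lower. In all, 3646 genes were then higher and 3468 lower. Same-numbered libraries correlated at 0.070, 0.065 and 0.039 in their deviations from the group means. Libraries with different numbers correlated at -0.121 to 0.057. Values this small cannot settle whether the numbers pair the libraries, and the main fit does not pair them. The alternative that keeps members with protein under 95% identical to every other member was not run. Low counts limit the gamma cluster, where 12 of 22 genes could not be tested.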
